A study of Homo sapiens with 39 samples.

Results

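WM115 is an established human melanoma cell line. Clone 4.2 is a WM115 clone labelled with a deletion of R4, which the series describes as an enhancer region of SOX10, and it was set against wild-type WM115 cells (WT). The comparison used 7 of the 39 RNA-seq libraries in the series, 3 of clone 4.2 and 4 of WT, chosen by their labels and by no measured value. No treatment or time point is given for either group, and the labels give skin as the tissue and melanoma cells as the cell type. The rest of the series holds other clones of WM115 and of the melanoma line A375, among them WM115 clone 4.1, which is labelled with the same deletion. RNA was selected by its poly-A tail and copied from random primers after an RNA integrity check, per the labels' protocols. All 3 libraries come from 1 clone, so a change that goes with the deletion and a change that goes with this clone cannot be told apart. The labels do not say that the libraries came from separate cultures, so p-values measure only a spread between libraries, which may be technical. That spread was pooled over all 21 WM115 libraries in 6 groups, so SEs and p-values also rest on WM115 clones outside this comparison.

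SOX10 encodes a factor that specifies neural crest cells and stays active in the glia and pigment cells derived from them. In melanocytes it acts with MITF, the transcription factor that turns on the enzymes and structural proteins of the melanosome, the organelle in which melanin is made. Melanoma cells can lose this pigment program while gaining genes of neural crest cells, of matrix-producing cells and of growth factor signalling.

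The labelled cell type was compared with its defining markers first. SOX10 (ENSG00000100146, chr22:37970686-37987422) was at 553, 539.9, 485 and 449 TPM in WT replicates 1 to 4 and at 506, 321 and 438 TPM in clone 4.2 replicates 1 to 3. TPM is a gene's length-corrected share of a library. The SOX10 groups overlapped and SOX10 was not called (log2 difference -0.28 ± 0.70 SE, limma adjusted p = 0.804). S100B, a calcium-binding protein of pigment cells and glia, was at 326 ± 62.8 TPM (SD, n = 4) in WT and 458 ± 146 TPM (SD, n = 3) in clone 4.2. The melanocyte markers TYR, MLANA and TYRP1 were under 1 TPM in all 3 libraries of clone 4.2. In bulk RNA, fewer cells of a type and less RNA per cell cannot be told apart.

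Across the 7 libraries, between 14413 and 15382 genes reached 1 TPM. Pairwise correlations of log2(TPM + 1) within a group lay between 0.9655 and 0.9857. WT replicate 3 stood apart from the other WT libraries: DCT was at 215 TPM there against 681 to 1685 TPM, and THBS1, which encodes a matrix glycoprotein, was at 243 TPM against 27.0 to 41.5 TPM. Mitochondrially encoded RNA took 13.7% to 15.6% of TPM in WT and 4.71%, 12.7% and 11.2% in clone 4.2 replicates 1 to 3. Ribosomal protein genes took 12.0% to 13.6% in WT and 16.2% to 18.6% in clone 4.2. Their part in the results below was not tested, except through alternative fits. Such fits had a term for the libraries under 7.5% mitochondrial RNA (clone 4.2 replicate 1 among these 7) or left out single libraries. A further fit used TPM rescaled without mitochondrial and ribosomal protein genes. Markers of other cell types were low or mixed. Their summed TPM was 503 to 755 in WT and 560.4 to 761 in clone 4.2 for fibroblasts, where COL1A2 gave most of the sum and COL1A1 and DCN stayed under 1 TPM on average. For keratinocytes the sums were 66.0 to 87.3 and 105 to 115, with KRT5, KRT1 and KRT6A at 0. Endothelial sums were 4.48 to 7.91 and 14.6 to 18.5, mainly from PECAM1 and ROBO4, with CDH5 listed at 0 in clone 4.2. Leukocyte sums were 0.762 to 14.2 and 0.35 to 0.684, with CD3D and TYROBP at 0.

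Differences are log2(TPM + 1) values of clone 4.2 minus WT from limma. A gene was called at an adjusted p under 0.05 and a log2 difference of at least 1 in size. Of 16997 genes tested, 1122 were called (6.6%), 429 higher (2.52%) and 693 lower (4.08%) in clone 4.2. The median over all tested genes was -0.10, and higher genes made 38.2% of those called. After median-of-ratios scaling the split was 551 higher and 540 lower, and after quantile normalization it was 549 and 530, with the median over all genes at 0.00 after the first of these. Without clone 4.2 replicate 2 the number of genes called lower was 458. The balance between higher and lower calls depends on how the libraries are scaled. Protein-coding genes were 363 of the genes that rose and 533 of those that fell, and long noncoding RNAs were 41 and 120. Among all tested genes the TPM of the groups did not overlap for 5460 (32.1%), and among the 1122 called genes they did not overlap for 1054.

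Each gene named as risen or fallen against WT kept its call when any 1 of the 7 libraries was left out, unless the paragraph says otherwise. Of the 206 genes called and named by the rule, 120 kept the call in all these fits and 84 lost it in at least 1 of them. With the mitochondrial term, CDH2, LMCD1, TGFBI, TGFB2, WNT5B, ALDH1A2, EGR1, EFNB2, COL6A1, TIMP1, SLC2A1, STC1, IGFBP7 and PSMB10 lost their calls, and after median-of-ratios scaling TGFB2, PHLDA3 and PPARGC1B did. Gene lists are described by the number of tested members called, to be read against 2.52% higher and 4.08% lower among all tested genes, and by their median log2 difference, to be read against -0.10. Lists with a high share of members called lower held pigment and melanocytic genes, MHC class II genes and sterol synthesis genes. S100 genes, ephrin receptors, plasminogen system genes and factors of the epithelial to mesenchymal transition had a high share called higher.

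**Figure D1:**
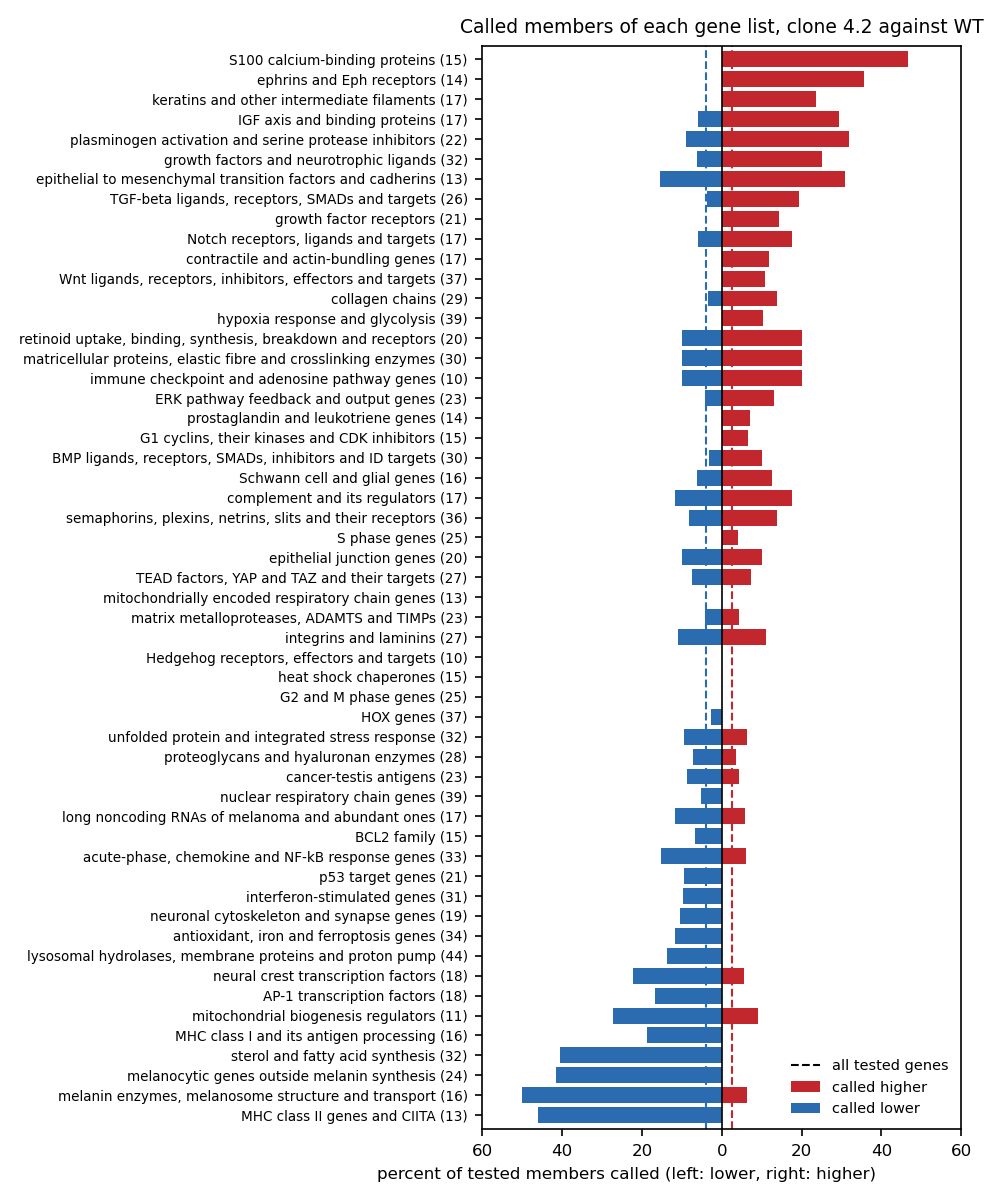
Percent of tested members called in the 54 gene lists with at least 10 tested members, markers of other cell types left out, clone 4.2 against WT, higher to the right (red) and lower to the left (blue), with the number of tested members in parentheses and dashed lines at the shares among all tested genes, 2.52% higher and 4.08% lower. Of the lists drawn, the S100 list reaches furthest to the right, with 7 of 15 members called higher, and the melanin and melanosome list furthest to the left, with 8 of 16 called lower.

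The genes that fell furthest were pigment cell genes and a secreted phosphoprotein. DCT, an enzyme of melanin synthesis, was at 785, 681, 215 and 1685 TPM in WT and 3.89, 8.72 and 2.71 TPM in clone 4.2 (log2 difference -6.89 ± 1.21 SE, limma adjusted p = 9.59e-04). CAPN3, a protease with a melanocytic transcript, was at 369, 312, 60.5 and 489.8 TPM in WT and 1, 1.55 and 2.6 TPM in clone 4.2 (log2 difference -6.53 ± 0.99 SE, limma adjusted p = 2.96e-04). SPP1 (chr4:87975650-87983426), which encodes the secreted matrix protein osteopontin, was at 624, 546, 403 and 896 TPM in WT and 12.0, 12.97 and 8.2 TPM in clone 4.2 (log2 difference -5.64 ± 0.70 SE, limma adjusted p = 4.51e-05). No library of clone 4.2 overlapped WT for these genes, and the WT means were 165, 179 and 55.8 times the clone 4.2 means. Next by size among the genes that fell were LINC00520 (-5.07), the transporter gene ABCB5 (-4.95), TYRP1 (-4.84), LHFPL3-AS1 (-4.72), GAPDHS (-4.31), MLANA (-4.07), LINC00518 (-4.05), the sugar transporter family gene SLC5A4 (-4.04) and DMKN (-3.99), with limma adjusted p between 2.85e-06 and 0.00308.

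The genes that rose furthest came from several pathways. STRA6, the cell surface receptor for retinol-binding protein, was at 0.555, 1.08, 1.53 and 0.095 TPM in WT and 14.5, 9.41 and 74.0 TPM in clone 4.2 (log2 difference 3.73 ± 0.61 SE, limma adjusted p = 6.02e-04). LGALS7B, a galectin gene with a near-identical neighbour, LGALS7, rose by 3.69 log2 units, and how reads were shared between the pair is not given. MGST1, a membrane glutathione transferase, was at 8.25, 4.94, 3.7 and 6.46 TPM in WT and 83.1, 69.8 and 84.4 TPM in clone 4.2 (log2 difference 3.59 ± 0.77 SE, limma adjusted p = 0.00384). CLU, which encodes the extracellular chaperone clusterin, was at 3.09, 4.91, 5.81 and 3.52 TPM in WT and 89.1, 55.1 and 40.4 TPM in clone 4.2 (log2 difference 3.51 ± 0.58 SE, limma adjusted p = 6.47e-04). The clone 4.2 libraries lay above all WT libraries for each of these genes. Also among the 12 that rose furthest were VIT (3.51), ID1 (3.46), ID3 (3.37), the neuropeptide receptor gene VIPR1 (3.22), the imprinted long noncoding RNA H19 (3.17), EPGN (3.10) and the smooth muscle actin gene ACTG2 (3.08), with limma adjusted p between 4.43e-08 and 0.00723. EPGN, an EGF family ligand, was listed at 0 in all 4 WT libraries and at 10.9, 6.68 and 5.93 TPM in clone 4.2. Without any 1 library of clone 4.2, EPGN no longer met the filter on low values, so it could not be tested there.

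Of 16 tested genes for melanin enzymes, melanosome structure and melanosome transport, 8 fell and 1 rose (median -1.70), and 10 of 24 tested melanocytic genes outside melanin synthesis fell and none rose (median -1.25). The melanin enzyme gene TYRP1 was at 57.6, 36.4, 10.6 and 128 TPM in WT and 0.594, 0.234 and 0.648 TPM in clone 4.2 (log2 difference -4.84 ± 0.94 SE, limma adjusted p = 0.00189). MLANA, a melanosome protein, was at 29.7, 15.1, 3.67 and 54.4 TPM in WT and 0.167, 0.144 and 0.08 TPM in clone 4.2 (log2 difference -4.07 ± 0.80 SE, limma adjusted p = 0.00213). GPNMB, a melanosomal and lysosomal glycoprotein, was at 800.1, 802, 415 and 915 TPM in WT and 89.1, 112 and 95.7 TPM in clone 4.2 (log2 difference -2.82 ± 0.42 SE, limma adjusted p = 2.52e-04). WT and clone 4.2 did not overlap for any of the 3, and WT replicate 3 was the lowest WT library each time. The ion exchanger gene SLC24A5 also fell (log2 difference -3.06 ± 0.77 SE, limma adjusted p = 0.00958). TYR, SLC45A2 and TSPAN10 fell as well, with log2 differences of -2.73, -1.87 and -1.53, and were less stable. TYR lost its call without WT replicate 4 or clone 4.2 replicate 2 (log2 difference -2.73 to -2.11, adjusted p 0.0554 to 0.0572 by limma). SLC45A2 lost its call without WT replicate 1 or 4 or clone 4.2 replicate 1, 2 or 3 (log2 difference -1.97 to -1.40, adjusted p 0.068 to 0.0974 by limma). TSPAN10 lost its call without WT replicate 4 (log2 difference -1.14, adjusted p 0.0503 by limma). Without WT replicate 4 the count of fallen pigment genes was 5, and without WT replicate 3 it was 12. PMEL, the fibril protein of the melanosome, was at 19.4 ± 14.8 TPM in WT and 3.14 ± 1.17 TPM in clone 4.2 and was not called (log2 difference -2.09 ± 0.79 SE, limma adjusted p = 0.0678).

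Of the melanocytic genes outside melanin synthesis, MITF itself fell. MITF (ENSG00000187098, chr3:69739435-69968337) was at 149, 139, 60.5 and 164 TPM in WT and 15.2, 15.8 and 18.3 TPM in clone 4.2 (log2 difference -2.79 ± 0.61 SE, limma adjusted p = 0.00412). PPARGC1A, a coactivator of mitochondrial gene expression, was at 15.5, 15.8, 2.04 and 16.9 TPM in WT and 0.362, 0.19 and 0.293 TPM in clone 4.2 (log2 difference -3.12 ± 0.67 SE, limma adjusted p = 0.00376). The immune receptor gene TNFRSF14 was at 177, 162, 49.7 and 222 TPM in WT and 8.97, 17.8 and 22.3 TPM in clone 4.2 (log2 difference -3.04 ± 0.64 SE, limma adjusted p = 0.00348). For all 3 the groups stood apart, with WT replicate 3 nearest to clone 4.2. ACP5, a lysosomal phosphatase, and the membrane protein gene GPM6B fell, with log2 differences of -2.78 and -2.61. EDNRB, an endothelin receptor of the pigment lineage, was at 183 ± 54.6 TPM in WT and 66.1 ± 15.4 TPM in clone 4.2 and was not called (log2 difference -1.42 ± 0.86 SE, limma adjusted p = 0.253). Over the fits without 1 library, between 7 and 13 of these genes fell.

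The pigment member that rose was GPR143, a melanosomal receptor gene on the X chromosome. It was at 0.059, 0.347, 0.062 and 0.141 TPM in WT and 2.26, 1.26 and 6.08 TPM in clone 4.2, with no overlap (log2 difference 1.71 ± 0.27 SE, limma adjusted p = 3.52e-04). Like EPGN, GPR143 fell under the filter on low values without any 1 library of clone 4.2 and was then not tested. Both genes passed that filter only through the clone 4.2 libraries, where they are high, so their p-values lend no separate support.

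**Figure D2:**
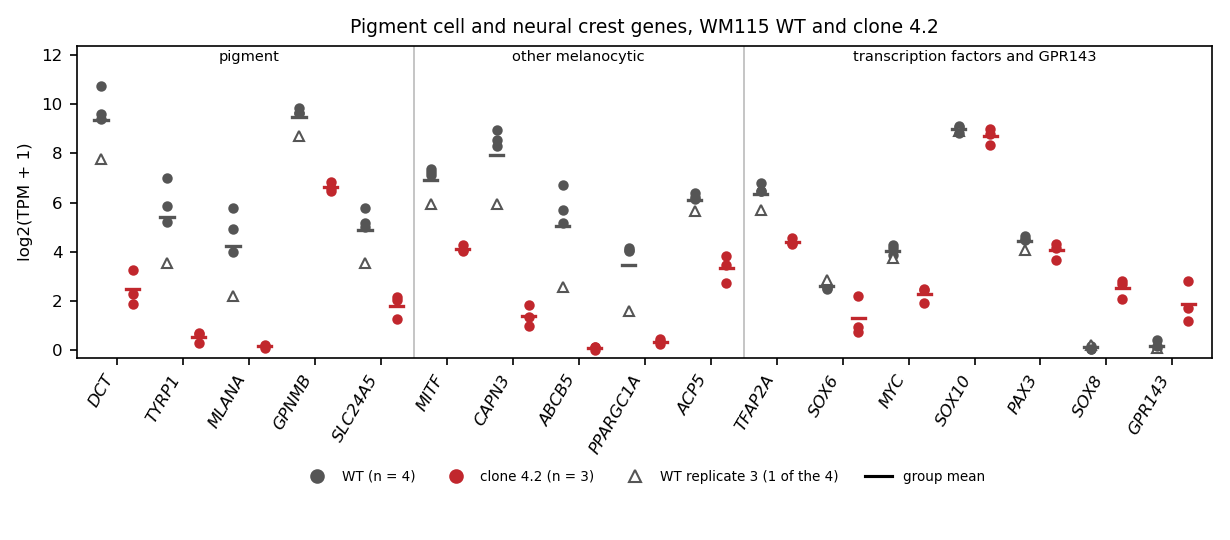
Level of pigment cell and neural crest genes in each library as log2(TPM + 1), for the 4 WT and the 3 clone 4.2 libraries, with an open triangle for WT replicate 3 and a bar at each group's mean. DCT, CAPN3 and TYRP1 show the widest gaps between the groups, the SOX10 and PAX3 points overlap, and SOX8 and GPR143 are higher in clone 4.2.

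Promoter sequences were looked up for the called members of the pigment, melanocytic, BMP and retinoid lists, and 24 of 29 had an entry in the RefSeq table (GRCh38.p14, from 250 bases before to 50 after the start). The letters searched on both strands were the M-box TCATGTG, an E-box extended on one side, the E-box CACGTG, the AP-1 motif TGANTCA and the SMAD palindrome GTCTAGAC. The RefSeq start lay within 1000 bases of the outer gene start in GENCODE 29, the source of the gene positions given here, for 14 of the 24. For DCT the RefSeq start lay 69724 bases before the GENCODE gene and for PPARGC1A 568816 bases before it, so these windows are not at the start of the gene positions given here. For the other 8 it lay inside the gene, among them TYRP1 by 7946, GPNMB by 10808, GDF15 by 11427 and GPR143 by 20450 bases. Of the first 8 genes by the naming rule, CAPN3, MLANA, GDF15, ID1 and ID3 held no match in this window, DCT was not read for the reason given, and TYRP1 and STRA6 held an M-box. TYRP1 and STRA6 are shown because the first fell and the second rose with the same letters near the start. SLC24A5, GPNMB, TYR and GPR143 were added after their matches were seen, 3 that fell and 1 that rose. The capitals mark the M-box on either strand and, in GPNMB, also the AP-1 match that comes first.
TYRP1, chr9:12693135-12693434, plus strand: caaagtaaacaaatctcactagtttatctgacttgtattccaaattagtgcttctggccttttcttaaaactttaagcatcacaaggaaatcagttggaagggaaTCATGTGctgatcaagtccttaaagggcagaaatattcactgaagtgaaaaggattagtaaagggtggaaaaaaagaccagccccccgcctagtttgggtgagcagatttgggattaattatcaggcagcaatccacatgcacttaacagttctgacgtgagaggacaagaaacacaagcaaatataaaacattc
STRA6, chr15:74212210-74212509, minus strand: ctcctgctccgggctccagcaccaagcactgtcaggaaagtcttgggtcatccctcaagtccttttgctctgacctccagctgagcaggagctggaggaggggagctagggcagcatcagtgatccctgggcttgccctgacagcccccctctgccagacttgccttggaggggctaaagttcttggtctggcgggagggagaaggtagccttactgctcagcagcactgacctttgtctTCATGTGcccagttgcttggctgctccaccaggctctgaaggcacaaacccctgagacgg
SLC24A5, chr15:48120740-48121039, plus strand: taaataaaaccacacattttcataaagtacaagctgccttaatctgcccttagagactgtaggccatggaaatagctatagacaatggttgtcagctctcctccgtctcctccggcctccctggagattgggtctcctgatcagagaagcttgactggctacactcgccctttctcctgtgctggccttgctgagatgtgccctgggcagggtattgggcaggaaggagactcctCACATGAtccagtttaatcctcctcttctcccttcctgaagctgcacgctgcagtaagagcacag
GPNMB, chr7:23246525-23246824, plus strand: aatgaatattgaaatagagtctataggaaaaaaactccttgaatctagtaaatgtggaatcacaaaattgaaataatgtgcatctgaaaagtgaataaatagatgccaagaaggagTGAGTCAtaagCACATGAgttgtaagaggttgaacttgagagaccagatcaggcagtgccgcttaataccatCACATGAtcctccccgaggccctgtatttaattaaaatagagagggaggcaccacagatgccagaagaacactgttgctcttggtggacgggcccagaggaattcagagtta
TYR, chr11:89177625-89177924, plus strand: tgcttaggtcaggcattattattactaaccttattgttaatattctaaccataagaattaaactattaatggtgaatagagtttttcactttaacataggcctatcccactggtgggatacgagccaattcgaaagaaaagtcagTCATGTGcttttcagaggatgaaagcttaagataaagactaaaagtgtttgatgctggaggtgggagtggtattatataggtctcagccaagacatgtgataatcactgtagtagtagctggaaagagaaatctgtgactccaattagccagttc
GPR143, chrX:9765798-9766097, minus strand: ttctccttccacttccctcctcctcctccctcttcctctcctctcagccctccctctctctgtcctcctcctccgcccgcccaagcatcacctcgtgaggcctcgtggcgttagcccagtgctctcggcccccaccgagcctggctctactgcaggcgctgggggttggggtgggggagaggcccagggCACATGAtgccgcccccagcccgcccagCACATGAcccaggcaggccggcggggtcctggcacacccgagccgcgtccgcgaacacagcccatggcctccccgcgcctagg

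The M-box began 145 bases before the RefSeq start in TYRP1, 105 before it in TYR, 15 in SLC24A5 and 10 in STRA6. GPNMB held it at 123 and 62 bases before the start and GPR143 at 61 and 33. The letters were present in 5 of the 14 matched promoters of pigment and melanocytic genes that fell (35.7%, the DCT and PPARGC1A windows included), in 21 of 456 promoters of all genes that fell (4.61%) and in 2 of 281 of genes that rose (0.712%). Among promoters of the same length they were in 192 of 11068 tested genes (1.73%) and in 817 of 27305 in the table (2.99%). The AP-1 letters stood in 4.9% of tested promoters, in 8.33% of those of genes that fell and in 7.83% of those of genes that rose. A match of letters is a description of the window and not a measured binding site.

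Among 18 tested neural crest transcription factors, 1 rose and 4 fell (median -0.24). SOX8, a relative of SOX10 in the same SOX subgroup, was at 0.142, 0.049, 0.15 and 0.041 TPM in WT and 5.56, 3.2 and 6.07 TPM in clone 4.2, so all clone libraries lay above all WT libraries (log2 difference 2.41 ± 0.47 SE, limma adjusted p = 0.00201). TFAP2A, a neural crest and pigment cell factor, was at 88.3, 86.8, 51.5 and 111 TPM in WT and 22.5, 18.8 and 19.9 TPM in clone 4.2 (log2 difference -1.95 ± 0.25 SE, limma adjusted p = 7.79e-05). The growth regulator MYC fell, as did SOX6 and ETS1, with log2 differences of -1.74, -1.32 and -1.21 and limma adjusted p of 0.0018, 0.00653 and 9.87e-04. In none of these genes did the groups overlap. PAX3 was at 20.8 ± 3.45 TPM in WT and 15.96 ± 3.71 TPM in clone 4.2 and was not called (log2 difference -0.37 ± 0.18 SE, limma adjusted p = 0.155).

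In the list of 16 tested Schwann cell and glial genes, 2 rose and 1 fell (median 0.45). GFRA2, a receptor of the GDNF family, was at 0.095, 0, 0.052 and 0 TPM in WT and 2.77, 1.57 and 0.972 TPM in clone 4.2 (log2 difference 1.37 ± 0.30 SE, limma adjusted p = 0.00399). The water channel gene AQP1 rose (log2 difference 1.34 ± 0.35 SE, limma adjusted p = 0.0114) and MBP, a myelin protein gene, fell (log2 difference -2.29 ± 0.60 SE, limma adjusted p = 0.0117). AQP1 lost its call without clone 4.2 replicate 2 (log2 difference 1.22, adjusted p 0.0577 by limma). MBP lost its call without clone 4.2 replicate 1 or 2 (log2 difference -2.10 to -2.06, adjusted p 0.0535 to 0.0586 by limma). CDH19, a cadherin of Schwann cell precursors, was at 28.9 ± 10.7 TPM in WT and 108 ± 11.2 TPM in clone 4.2, did not overlap between groups and was not called (log2 difference 1.92 ± 0.69 SE, limma adjusted p = 0.0569).

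Of 13 tested factors and cadherins of the epithelial to mesenchymal transition, 4 rose and 2 fell (median 0.61). FN1, the matrix protein fibronectin, was at 798, 1108, 1730 and 969 TPM in WT and 5041, 3289 and 3163 TPM in clone 4.2 (log2 difference 1.76 ± 0.39 SE, limma adjusted p = 0.00456). The transcription factor gene ZEB1 was at 11.8, 9.04, 14.01 and 6.04 TPM in WT and 28.9, 22.9 and 26.6 TPM in clone 4.2 (log2 difference 1.32 ± 0.27 SE, limma adjusted p = 0.00294), while its relative ZEB2 was at 119, 104, 89.8 and 118 TPM in WT and 51.8, 36.4 and 45.3 TPM in clone 4.2 (log2 difference -1.26 ± 0.27 SE, limma adjusted p = 0.0034). So ZEB1 rose and ZEB2 fell, each without overlap between the groups. The cadherin genes CDH11 (1.27) and CDH2 (1.05) rose and the splicing factor gene ESRP1 (-1.65) fell. CDH11 lost its call without clone 4.2 replicate 1 (log2 difference 1.05, adjusted p 0.072 by limma). CDH2 lost its call without WT replicate 4 or clone 4.2 replicate 1 (log2 difference 0.85 to 0.86, adjusted p 0.0697 to 0.0994 by limma). ESRP1 lost its call without WT replicate 1 or 4 or clone 4.2 replicate 1 or 2 (log2 difference -1.63 to -1.44, adjusted p 0.0558 to 0.0693 by limma). Without clone 4.2 replicate 1 the count of risen members was therefore 2.

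The ID genes, which encode inhibitors of basic helix-loop-helix transcription factors and are classical targets of BMP signalling, rose in 3 members, ID1, ID2 and ID3. ID1 (ENSG00000125968, chr20:31605283-31606515) was at 6.94, 4.06, 7.48 and 1.99 TPM in WT replicates 1 to 4 and 62.8, 56.8 and 63.6 TPM in clone 4.2 replicates 1 to 3 (log2 difference 3.46 ± 0.66 SE, limma adjusted p = 0.0018). ID3 (chr1:23557918-23559794) was at 6.97, 4.03, 4.25 and 3.65 TPM in WT and 91.9, 46.2 and 42.6 TPM in clone 4.2 (log2 difference 3.37 ± 0.65 SE, limma adjusted p = 0.00197). ID2 was at 5.38, 5.74, 5.1 and 3.06 TPM in WT and 12.8, 19.2 and 17.0 TPM in clone 4.2 (log2 difference 1.58 ± 0.36 SE, limma adjusted p = 0.00546). Every clone 4.2 library was above every WT library for the 3 genes, and the clone means were 11.9, 12.8 and 3.39 times the WT means. Over the whole list of BMP ligands, receptors, SMADs, inhibitors and ID genes, 3 of 30 tested members rose and 1 fell (median 0.19). The member that fell was GDF15, a distant ligand of this family that is also known as a stress-response cytokine. GDF15 (chr19:18374731-18389176) was at 1805, 1850, 628 and 2476 TPM in WT and 144, 97.4 and 158 TPM in clone 4.2 (log2 difference -3.53 ± 0.56 SE, limma adjusted p = 4.57e-04). Among the ligands themselves, BMP7 was at 24.5 ± 7.33 TPM in WT and 16.7 ± 1.44 TPM in clone 4.2 and BMP4 at 1.77 ± 0.168 and 3.09 ± 0.332 TPM, with neither called. The inhibitory SMAD gene SMAD6, also a BMP target, was at 5.15 ± 2.18 and 4.8 ± 0.81 TPM (log2 difference -0.03 ± 0.25 SE, limma adjusted p = 0.946).

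For TGF-beta ligands, receptors, SMADs and targets, 5 of 26 tested members rose and 1 fell (median 0.16). INHBB, an activin subunit, was at 3.41, 2.51, 2.76 and 1.02 TPM in WT and 21.7, 14.3 and 40.2 TPM in clone 4.2 (log2 difference 2.88 ± 0.56 SE, limma adjusted p = 0.0021), and its groups did not overlap. The targets PMEPA1, LMCD1 and TGFBI rose by 1.74, 1.26 and 1.04 log2 units, and the ligand gene TGFB2 had a difference of -1.05. PMEPA1 lost its call without WT replicate 1, 2 or 4 or clone 4.2 replicate 1 or 3 (log2 difference 1.38 to 1.84, adjusted p 0.0551 to 0.116 by limma). LMCD1 lost its call without WT replicate 1, 2 or 4 or clone 4.2 replicate 1 or 2 (log2 difference 1.07 to 1.32, adjusted p 0.0538 to 0.127 by limma). TGFBI lost its call without any 1 library other than WT replicate 3 (log2 difference 0.89 to 1.16, adjusted p 0.0558 to 0.132 by limma). TGFB2 lost its call without WT replicate 1 or 2 or clone 4.2 replicate 1 or 2 (log2 difference -0.97 to -0.92, adjusted p 0.0799 to 0.12 by limma). The count of risen members was 2 or 3 without any 1 of the libraries other than WT replicate 3, and 3 with the mitochondrial term.

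In the retinoid list 4 of 20 tested members rose and 2 fell (median -0.07), with 10 differences above 0 and 10 below. Beside STRA6, CRABP2, a retinoic acid carrier, was at 1.38, 0.958, 1.26 and 1.9 TPM in WT and 10.4, 26.4 and 3.32 TPM in clone 4.2 (log2 difference 2.23 ± 0.49 SE, limma adjusted p = 0.00414). Its 3 clone values spread widely, but all lay above WT. CRABP1 rose (log2 difference 1.27 ± 0.33 SE, limma adjusted p = 0.0108). The retinaldehyde dehydrogenase genes ALDH1A1 and ALDH1A2 fell, with log2 differences of -1.197 and -1.305. CRABP1 lost its call without clone 4.2 replicate 1 (log2 difference 0.84, adjusted p 0.0789 by limma). ALDH1A1 lost its call without WT replicate 4 or clone 4.2 replicate 2 (log2 difference -1.02 to -0.98, adjusted p 0.0518 to 0.0909 by limma). ALDH1A2 lost its call without WT replicate 2, 3 or 4 or clone 4.2 replicate 1 or 2 (log2 difference -1.37 to -1.05, adjusted p 0.0512 to 0.152 by limma). No retinoid gene was called lower without WT replicate 4 or clone 4.2 replicate 2. The most abundant of these enzymes, ALDH1A3, was at 921 ± 350.2 TPM in WT and 1229 ± 317 TPM in clone 4.2 and was not called (log2 difference 0.46 ± 0.32 SE, limma adjusted p = 0.316).

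In the Wnt list 4 of 37 tested genes rose and none fell, or 2 fell without WT replicate 3 (median 0.01, and -0.04 with the mitochondrial term). WNT5A, a ligand of the noncanonical branch, was at 18.7, 18.1, 19.2 and 4.74 TPM in WT and 49.98, 46.4 and 75.2 TPM in clone 4.2 (log2 difference 1.98 ± 0.51 SE, limma adjusted p = 0.0115). SFRP1, a secreted Wnt antagonist, was at 149, 159, 196 and 101.1 TPM in WT and 489, 452 and 434 TPM in clone 4.2 (log2 difference 1.63 ± 0.30 SE, limma adjusted p = 0.00125). Neither gene overlapped between groups. The receptor gene FZD8 (1.23) and the ligand gene WNT5B (1.02) rose as well. FZD8 lost its call without clone 4.2 replicate 1 or 2 (log2 difference 0.98 to 1.25, adjusted p 0.0532 to 0.0917 by limma). WNT5B lost its call without WT replicate 2 or 4 or clone 4.2 replicate 1 or 3 (log2 difference 0.85 to 0.99, adjusted p 0.0524 to 0.0973 by limma). The count was 2 without clone 4.2 replicate 1.

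Of 17 tested Notch pathway genes, 3 rose and 1 fell (median 0.07, and -0.06 with the mitochondrial term). DLK2, a noncanonical ligand, was at 4.32, 3.06, 3.08 and 2.98 TPM in WT and 18.9, 14.4 and 12.8 TPM in clone 4.2, without overlap (log2 difference 1.90 ± 0.20 SE, limma adjusted p = 6.80e-06). The receptor gene NOTCH3 was at 0.504, 0.167, 0.186 and 0.529 TPM in WT and 1.87, 2.63 and 1.93 TPM in clone 4.2 (log2 difference 1.23 ± 0.36 SE, limma adjusted p = 0.0218). NOTCH3 lost its call without WT replicate 2 or clone 4.2 replicate 2 (log2 difference 1.12 to 1.16, adjusted p 0.0547 to 0.0903 by limma). The count of risen members was then 1, and no Notch gene was called lower without any 1 library other than WT replicate 3, after median-of-ratios scaling or quantile normalization, or with the mitochondrial term. No Hedgehog gene was called among 10 tested.

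Of 14 tested ephrins and Eph receptors, 5 rose and none fell (median 0.45). EPHB3 was at 6.01, 4.41, 4.9 and 2.87 TPM in WT and 31.3, 18.9 and 19.9 TPM in clone 4.2 (log2 difference 2.13 ± 0.31 SE, limma adjusted p = 1.90e-04). EPHB1 was at 2.38, 2.98, 7.07 and 1.03 TPM in WT and 16.04, 16.5 and 11.6 TPM in clone 4.2 (log2 difference 2.01 ± 0.46 SE, limma adjusted p = 0.00568). EPHB2 was at 0.558, 1.32, 1.53 and 0.515 TPM in WT and 3.33, 3.25 and 3.51 TPM in clone 4.2 (log2 difference 1.18 ± 0.31 SE, limma adjusted p = 0.0122). All 3 were higher in every clone 4.2 library than in any WT library. EPHA4 (1.297) and the ligand gene EFNB2 (1.065) also rose, and EPHB4 was not called (log2 difference 0.04 ± 0.14 SE, limma adjusted p = 0.859). EFNB2 lost its call without WT replicate 4 or clone 4.2 replicate 1 (log2 difference 0.89 to 0.94, adjusted p 0.034 to 0.0467 by limma).

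Semaphorin, plexin and slit genes moved both ways, with 5 of 36 tested rising and 3 falling (median 0.13). SEMA3B, a secreted semaphorin, was at 51.7, 76.2, 106 and 34.3 TPM in WT and 209, 206 and 256 TPM in clone 4.2 (log2 difference 1.84 ± 0.42 SE, limma adjusted p = 0.00556). ROBO4, a receptor best known from endothelium, was at 0.427, 0.7, 1.75 and 0.057 TPM in WT and 9.24, 6.15 and 13.7 TPM in clone 4.2 (log2 difference 2.65 ± 0.39 SE, limma adjusted p = 2.17e-04). SEMA7A, a membrane-anchored semaphorin, rose and the receptor gene PLXND1 fell, with log2 differences of 1.35 and -1.42 and limma adjusted p of 0.00598 and 0.00587. Of the 19 tested neuronal genes, the neurofilament gene NEFL and MAPT, which encodes tau, fell, with log2 differences of -1.53 and -1.39, and none rose. The semaphorin list's count of risen genes was 3 without WT replicate 1, 2 or 4 or without clone 4.2 replicate 1 or 3, and 3 with the mitochondrial term. The fallen count was 1 without clone 4.2 replicate 1.

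Growth factor genes rose more often than they fell, 8 against 2 of 32 tested (median 0.14). TGFA, an EGF receptor ligand, was at 112, 119.9, 136 and 84.8 TPM in WT and 646, 657 and 305 TPM in clone 4.2 (log2 difference 2.17 ± 0.49 SE, limma adjusted p = 0.00495). PDGFB, a platelet-derived growth factor chain, was at 0.412, 0.47, 2.09 and 0.36 TPM in WT and 3.78, 2.79 and 7.62 TPM in clone 4.2 (log2 difference 1.65 ± 0.38 SE, limma adjusted p = 0.00597). ANGPTL2 rose by 1.504 log2 units. PROS1, protein S and a ligand of the TAM receptors, was at 30.1, 23.7, 17.2 and 40.1 TPM in WT and 1.82, 2.13 and 1.058 TPM in clone 4.2 (log2 difference -3.39 ± 0.30 SE, limma adjusted p = 1.76e-06). ANGPT2 fell (log2 difference -1.61). Groups overlapped for none of these 5. The angiogenic factor gene VEGFA (1.86) and the EGF family gene AREG (1.71) rose too. VEGFA lost its call without WT replicate 1 or clone 4.2 replicate 1 or 2 (log2 difference 1.44 to 1.73, adjusted p 0.0513 to 0.114 by limma). AREG lost its call without WT replicate 1, 2 or 4 or clone 4.2 replicate 1 or 2 (log2 difference 1.39 to 1.77, adjusted p 0.0562 to 0.15 by limma). Without clone 4.2 replicate 1 the count of risen growth factor genes was 5.

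Among 21 tested growth factor receptor genes, 3 rose and none fell (median 0.11). FGFR1 was at 10.3, 11.5, 15.7 and 9.17 TPM in WT and 32.6, 24.4 and 26.2 TPM in clone 4.2 (log2 difference 1.198 ± 0.22 SE, limma adjusted p = 0.00114). FGFR3 was at 4.35, 4.54, 5.41 and 3.997 TPM in WT and 11.3, 12.0 and 13.7 TPM in clone 4.2 (log2 difference 1.26 ± 0.25 SE, limma adjusted p = 0.00252). FGFR1 and FGFR3 stood apart between the groups in every library, whereas AXL, a TAM receptor, was at 44.6, 58.5, 144 and 33.8 TPM in WT and 151, 138 and 194 TPM in clone 4.2 and overlapped through WT replicate 3 (log2 difference 1.40 ± 0.46 SE, limma adjusted p = 0.0366). AXL lost its call without any 1 library other than WT replicate 3 (log2 difference 1.13 to 1.502, adjusted p 0.0705 to 0.114 by limma). AXL is also a member of the TEAD, YAP and TAZ list, in which 2 of 27 tested members rose, AXL and F3, the tissue factor gene, and 2 fell. F3 lost its call without WT replicate 1, 2 or 4 or clone 4.2 replicate 1 or 2 (log2 difference 0.87 to 1.09, adjusted p 0.0593 to 0.137 by limma). No member of that list was called higher without any 1 of WT replicates 1, 2 and 4 and clone 4.2 replicates 1 and 2 or with the mitochondrial term, and 1 member was called higher without clone 4.2 replicate 3.

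ERK output genes gave 3 risen and 1 fallen of 23 tested (median 0.28), with 5 risen without WT replicate 3 or after median-of-ratios scaling. EGR2, an immediate early transcription factor, was at 1.21, 0.809, 0.74 and 1.19 TPM in WT and 6.05, 3.77 and 2.61 TPM in clone 4.2 (log2 difference 1.32 ± 0.31 SE, limma adjusted p = 0.00676). EGR1 rose by 1.68 log2 units. EGR1 lost its call without any 1 library other than WT replicate 3 (log2 difference 1.36 to 1.99, adjusted p 0.0557 to 0.164 by limma). The ERK phosphatase gene DUSP6 was at 178 ± 27.1 TPM in WT and 270.1 ± 58.1 TPM in clone 4.2, and was not called (log2 difference 0.59 ± 0.21 SE, limma adjusted p = 0.0538), as was CCND1 (log2 difference 0.01 ± 0.29 SE, limma adjusted p = 0.989). Of 18 tested AP-1 genes 3 fell and none rose. BATF was at 6.96, 6.63, 2.65 and 7.96 TPM in WT and 0, 0.087 and 0.087 TPM in clone 4.2 (log2 difference -2.66 ± 0.30 SE, limma adjusted p = 2.32e-05), and ATF3 fell (log2 difference -1.38). LATS2, a kinase of the Hippo pathway, was at 18.8, 20.1, 20.1 and 19.4 TPM in WT and 8.3, 7.11 and 8.42 TPM in clone 4.2 (log2 difference -1.21 ± 0.15 SE, limma adjusted p = 5.92e-05), and it lies on chromosome 13, whose genes are described below.

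Extracellular matrix genes changed in number and in both directions. Of 30 tested matricellular, elastic fibre and crosslinking genes, 6 rose and 3 fell (median 0.53). LOXL3, a collagen-crosslinking lysyl oxidase, was at 263, 294, 306 and 164 TPM in WT and 651, 779 and 572 TPM in clone 4.2 (log2 difference 1.40 ± 0.33 SE, limma adjusted p = 0.00646). FBLN1, an elastic fibre protein, was at 48.7, 35.7, 24.3 and 18.9 TPM in WT and 173, 75.8 and 132 TPM in clone 4.2 (log2 difference 1.97 ± 0.44 SE, limma adjusted p = 0.005). CCN5 was at 25.2, 13.8, 18.5 and 20.1 TPM in WT and 0.608, 1.31 and 0.662 TPM in clone 4.2 (log2 difference -3.45 ± 0.68 SE, limma adjusted p = 0.00211), and its relative CCN3 fell (log2 difference -2.26 ± 0.41 SE, limma adjusted p = 0.0012). The groups were separate for these 4 genes. Their relatives CCN1 and CCN2 were not called (0.77 and 0.75), and WT replicate 3 was the highest of all 7 libraries for both.

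In the collagen list 4 of 29 tested chains rose and 1 fell (median 0.28). COL12A1, a fibril-associated chain, was at 9.85, 10.7, 21.9 and 10.3 TPM in WT and 52.99, 40.2 and 51.5 TPM in clone 4.2 (log2 difference 1.86 ± 0.39 SE, limma adjusted p = 0.00314). COL6A2 was at 108, 81.3, 76.5 and 80.3 TPM in WT and 305, 349.8 and 262 TPM in clone 4.2 (log2 difference 1.81 ± 0.54 SE, limma adjusted p = 0.0239), and its partner chain COL6A1 rose by 1.46. COL5A1 rose from near 0 (log2 difference 1.18 ± 0.32 SE, limma adjusted p = 0.0144). COL6A2 lost its call without WT replicate 2 or 4 or clone 4.2 replicate 1 or 2 (log2 difference 1.71 to 1.81, adjusted p 0.0514 to 0.0876 by limma). COL6A1 lost its call without any 1 of the 7 libraries (log2 difference 1.33 to 1.58, adjusted p 0.0507 to 0.13 by limma). No chain was called lower without WT replicate 1, 2 or 4 or clone 4.2 replicate 1 or 2, after median-of-ratios scaling or with the mitochondrial term. The count of risen chains was 2 without WT replicate 2 or 4 or clone 4.2 replicate 1, and 7 after quantile normalization. COL1A2, at 545 ± 99.8 TPM in WT and 662 ± 109 TPM in clone 4.2, was not called (log2 difference 0.29 ± 0.21 SE, limma adjusted p = 0.355).

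Of 27 tested integrins and laminins 3 rose and 3 fell (median 0.21), and each count ran from 1 to 4 over the fits without 1 library. Among 23 tested metalloprotease, ADAMTS and TIMP genes 1 rose and 1 fell (median -0.03), TIMP1 and TIMP2. Of 28 tested proteoglycan and hyaluronan genes 1 rose and 2 fell (median 0.01). LAMA1, the alpha 1 chain of laminin, was at 31.4, 33.2, 24.9 and 37.6 TPM in WT and 2.32, 2.19 and 2.84 TPM in clone 4.2 (log2 difference -3.24 ± 0.38 SE, limma adjusted p = 2.74e-05). ITGA2, a collagen-binding integrin, was at 9.93, 8.51, 9.47 and 6.74 TPM in WT and 28.0, 18.3 and 18.7 TPM in clone 4.2 (log2 difference 1.22 ± 0.24 SE, limma adjusted p = 0.0023). TIMP2, a metalloprotease inhibitor, was at 503, 416, 312 and 611 TPM in WT and 141, 106 and 152 TPM in clone 4.2 (log2 difference -1.76 ± 0.29 SE, limma adjusted p = 5.73e-04). No library crossed between the groups. Its relative TIMP1 moved the other way, from 600.5 ± 93.6 to 1283 ± 329 TPM (log2 difference 1.08 ± 0.17 SE, limma adjusted p = 4.30e-04). TIMP1 lost its call without WT replicate 4 or clone 4.2 replicate 1 (log2 difference 0.88 to 0.96, adjusted p 0.00201 to 0.00401 by limma). GPC4, a cell surface heparan sulfate proteoglycan, fell from 3.23 ± 0.695 to 0.0297 ± 0.0191 TPM (log2 difference -2.02 ± 0.15 SE, limma adjusted p = 2.25e-07). FAP, a surface protease of activated fibroblasts that some melanoma lines also express, fell from 47.8 ± 16.3 to 5.14 ± 1.72 TPM (log2 difference -2.97 ± 0.35 SE, limma adjusted p = 3.12e-05).

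In the plasminogen and serpin list 7 of 22 tested members rose and 2 fell (median 0.38). PLAT, tissue plasminogen activator, was at 63.0, 60.6, 106 and 40.6 TPM in WT and 194, 228 and 214 TPM in clone 4.2 (log2 difference 1.72 ± 0.40 SE, limma adjusted p = 0.006). TFPI2, a serine protease inhibitor of the matrix, was at 14.3, 14.7, 22.9 and 6.69 TPM in WT and 56.1, 68.6 and 72.9 TPM in clone 4.2 (log2 difference 2.20 ± 0.44 SE, limma adjusted p = 0.0025). SERPINF1, which encodes pigment epithelium-derived factor, was at 47.9, 31.6, 20.7 and 90.5 TPM in WT and 4.92, 5.25 and 3.46 TPM in clone 4.2 (log2 difference -2.94 ± 0.66 SE, limma adjusted p = 0.00488). The 3 genes showed no overlap between groups. THBD, thrombomodulin, fell (log2 difference -1.53) and PLAUR, the urokinase receptor gene, rose (log2 difference 1.502). PLAUR lost its call without WT replicate 1 or 4 or clone 4.2 replicate 1 or 2 (log2 difference 1.40 to 1.496, adjusted p 0.0523 to 0.0651 by limma). The count of risen members was 3 without WT replicate 1 or 4 or clone 4.2 replicate 1, and 4 without WT replicate 2 or clone 4.2 replicate 2 or with the mitochondrial term.

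S100 calcium-binding proteins rose in 7 of 15 tested members and none fell (median 0.63). S100A4 (chr1:153543613-153550136), a motility-associated member, was at 260.4, 280.3, 396 and 240.2 TPM in WT and 1264, 1938 and 1380 TPM in clone 4.2 (log2 difference 2.37 ± 0.30 SE, limma adjusted p = 5.01e-05). S100A6 was at 1538, 1742, 2784 and 1502 TPM in WT and 4408, 5720 and 5467 TPM in clone 4.2 (log2 difference 1.497 ± 0.31 SE, limma adjusted p = 0.00316). S100A13 was at 89.2, 82.5, 114 and 85.2 TPM in WT and 281, 347 and 276 TPM in clone 4.2 (log2 difference 1.69 ± 0.24 SE, limma adjusted p = 1.54e-04). Each clone 4.2 library lay above each WT library for these 3 genes of the S100 cluster on chromosome 1. S100A5 rose by 2.11 log2 units. The other risen members were S100A2 (2.86), S100A3 (1.49) and S100A10 (1.097). S100A2 lost its call without WT replicate 1 or 4 or clone 4.2 replicate 1 or 2 (log2 difference 2.30 to 2.71, adjusted p 0.0574 to 0.0844 by limma). S100A3 lost its call without any 1 library other than WT replicate 3 (log2 difference 1.24 to 1.69, adjusted p 0.0598 to 0.129 by limma). S100A10 lost its call without WT replicate 1 or 4 or clone 4.2 replicate 1 or 2 (log2 difference 0.91 to 1.098, adjusted p 0.0595 to 0.106 by limma). The count of risen S100 genes was 4 without any 1 of WT replicates 1 and 4 and clone 4.2 replicates 1 and 2. The galectin gene LGALS1 was at 823 ± 306 TPM in WT and 2108 ± 215 TPM in clone 4.2 (log2 difference 1.43 ± 0.35 SE, limma adjusted p = 0.00825), whereas LGALS3 was at 504 ± 263 and 96.0 ± 4.42 TPM (log2 difference -2.23 ± 0.42 SE, limma adjusted p = 0.00151).

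**Figure D3:**
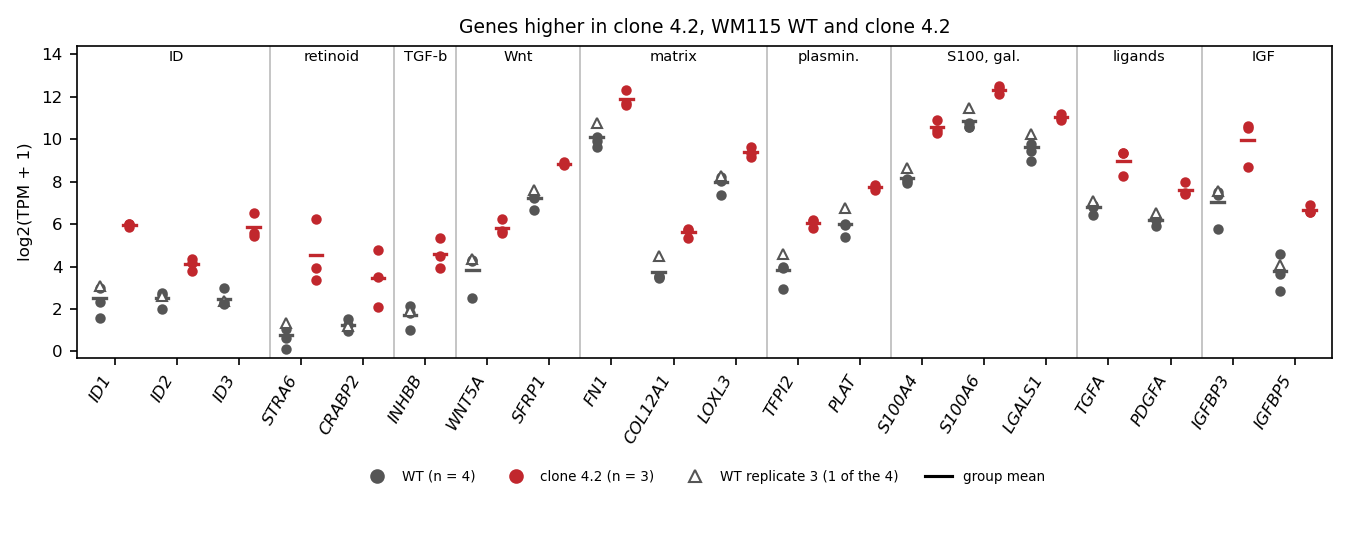
Level of genes higher in clone 4.2 in each library as log2(TPM + 1), for the 4 WT and the 3 clone 4.2 libraries, with an open triangle for WT replicate 3 and a bar at each group's mean. Every gene shown has all clone 4.2 points above all WT points, by the widest margin on this scale for ID1 and ID3.

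Keratins, contractile and junction genes changed in few members. KRT81, a hair keratin, was at 0.203, 0.207, 0.86 and 0.023 TPM in WT and 11.9, 2.77 and 11.1 TPM in clone 4.2 (log2 difference 2.70 ± 0.51 SE, limma adjusted p = 0.00157), and KRT14 rose from 0.227 ± 0.242 to 2.13 ± 0.67 TPM (log2 difference 1.34 ± 0.25 SE, limma adjusted p = 0.00132). The keratin and intermediate filament list had 4 of 17 tested members risen (median 0.69), and 2 without WT replicate 1, 2 or 4 or clone 4.2 replicate 1 or 3, or with the mitochondrial term. The desmosome gene PKP3 was at 2.23, 2.71, 2.97 and 3.43 TPM in WT and 11.4, 8.95 and 8.16 TPM in clone 4.2 (log2 difference 1.45 ± 0.21 SE, limma adjusted p = 2.29e-04). The tight junction gene CLDN1 was at 5.36, 4.86, 8.06 and 10.5 TPM in WT and 1.03, 0.741 and 0.768 TPM in clone 4.2 (log2 difference -2.10 ± 0.36 SE, limma adjusted p = 7.20e-04), and F11R fell from 25.0 ± 3.74 to 6.09 ± 0.696 TPM (log2 difference -1.87 ± 0.27 SE, limma adjusted p = 2.17e-04). PKP3 lay above WT and CLDN1 and F11R below it in every clone library. Of the 12 keratinocyte markers 6 were tested, all with a difference above 0 (median 0.66), and KRT14 was the one called. KRT10 and SFN passed the p threshold but not the size threshold (log2 differences 0.54 and 0.78, limma adjusted p of 0.0197 and 0.0242), and the summed TPM of the markers, given above, did not overlap between the groups. KRT5, KRT1 and KRT6A were at 0 in all 7 libraries. The part of these markers in the keratin and junction values was not tested.

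Of the insulin-like growth factor binding proteins, IGFBP3, IGFBP5 and IGFBP7 rose, the last by 1.01 log2 units. IGFBP7 lost its call without WT replicate 2 or 3 or clone 4.2 replicate 1 (log2 difference 0.87 to 0.9985, adjusted p 0.0134 to 0.0338 by limma). IGFBP3 was at 184, 166, 185 and 53.4 TPM in WT and 1489, 1571 and 412 TPM in clone 4.2 (log2 difference 2.90 ± 0.69 SE, limma adjusted p = 0.00722). IGFBP5 was at 11.7, 23.1, 15.6 and 6.09 TPM in WT and 93.6, 93.2 and 117 TPM in clone 4.2 (log2 difference 2.89 ± 0.76 SE, limma adjusted p = 0.0124). The lowest clone 4.2 library was above the highest WT library for IGFBP3 and IGFBP5. Of 17 tested members of this axis 5 rose and 1 fell (median 0.18), among them PAPPA (1.54), a protease of IGF binding proteins, and its inhibitor gene STC1 (2.73). PAPPA lost its call without clone 4.2 replicate 2 (log2 difference 1.48, adjusted p 0.0535 by limma). STC1 lost its call without any 1 library other than clone 4.2 replicate 3 (log2 difference 2.28 to 2.80, adjusted p 0.0562 to 0.172 by limma). The count of risen members was 3 without WT replicate 2 or 3 or clone 4.2 replicate 1 or 2, and 3 with the mitochondrial term. The fallen count was 0 without any 1 of WT replicates 1, 2 and 4 and clone 4.2 replicates 2 and 3, 2 without WT replicate 3, and 0 after median-of-ratios scaling or quantile normalization. IGFBP2 was at 712 ± 46.5 and 1202 ± 362 TPM and was not called (log2 difference 0.72 ± 0.40 SE, limma adjusted p = 0.209). PTGS2, the inducible cyclooxygenase, was at 5.49, 9.63, 5.59 and 2.25 TPM in WT and 67.3, 38.7 and 34.8 TPM in clone 4.2 (log2 difference 2.89 ± 0.35 SE, limma adjusted p = 3.17e-05).

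Sterol and fatty acid synthesis genes fell in 13 of 32 tested members, none rose, and 29 of the 32 had a difference below 0 (median -0.83). HMGCS1 (chr5:43289395-43313512), which makes the precursor of mevalonate, was at 270.1, 208, 37.5 and 176 TPM in WT and 30.1, 12.9 and 16.9 TPM in clone 4.2 (log2 difference -2.83 ± 0.63 SE, limma adjusted p = 0.00471). MVD, an enzyme of the mevalonate branch, was at 89.7, 84.2, 31.9 and 63.7 TPM in WT and 19.2, 15.2 and 17.2 TPM in clone 4.2 (log2 difference -1.81 ± 0.33 SE, limma adjusted p = 0.00129). WT replicate 3 was the lowest WT library for both, and still above clone 4.2. The squalene-stage enzymes SQLE and LSS fell, with log2 differences of -1.78 and -1.45 and limma adjusted p of 0.00657 and 0.00125. Of the transcription factor genes of the pathway, SREBF1 was not called (log2 difference 0.03 ± 0.11 SE, limma adjusted p = 0.897), and SREBF2 passed the p threshold but not the size threshold (log2 difference -0.83 ± 0.25 SE, limma adjusted p = 0.0261). The count of fallen members depended on single libraries: it was 6 without WT replicate 1 or 2, 7 without WT replicate 4 or clone 4.2 replicate 3, 5 without clone 4.2 replicate 2 and 16 without WT replicate 3.

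**Figure D4:**
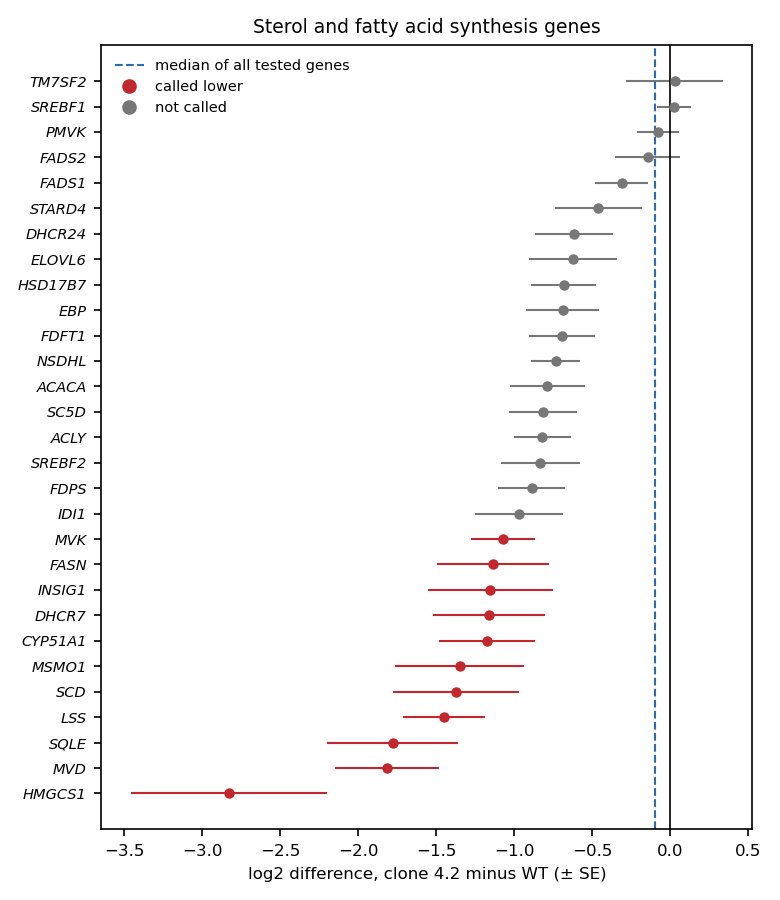
Log2 difference of clone 4.2 minus WT with its SE for 29 of the 32 tested genes of sterol and fatty acid synthesis, red where called lower and grey where not called, with lines at 0 and, dashed, at the median of all tested genes (-0.10). Of the 29 points, 27 lie below 0 and 11 are called, while SREBF1 sits near 0.

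Of 11 tested regulators of mitochondrial biogenesis 3 fell, PPARGC1A among them, and 1 rose (median -0.30). ESRRA, a nuclear receptor that works with PPARGC1A, was at 83.3, 78.8, 57.0 and 82.9 TPM in WT and 37.0, 31.6 and 35.5 TPM in clone 4.2 (log2 difference -1.09 ± 0.26 SE, limma adjusted p = 0.00736), and lost its call after median-of-ratios scaling. TFB1M, a mitochondrial rRNA methyltransferase, was at 13.3, 16.6, 15.5 and 17.96 TPM in WT and 43.4, 52.6 and 27.3 TPM in clone 4.2 (log2 difference 1.28 ± 0.30 SE, limma adjusted p = 0.00657). PPARGC1B had a log2 difference of -1.08. PPARGC1B lost its call without WT replicate 4 or clone 4.2 replicate 2 (log2 difference -0.9973 to -0.94, adjusted p 0.0117 to 0.0246 by limma). After median-of-ratios scaling 1 regulator fell, and none of the nuclear respiratory chain genes. Of 39 tested nuclear genes of the respiratory chain 2 fell and none rose (median -0.28), with none fallen without WT replicate 4 or clone 4.2 replicate 2, and of 13 mitochondrially encoded ones none was called (median -0.76). The share of mitochondrially encoded RNA in each clone 4.2 library was below that of every WT library, and it was lowest in replicate 1. Without that replicate the median of the 13 genes was -0.27. MT-CO1 was at 5656 TPM in replicate 1 against 15230 and 13640 TPM in replicates 2 and 3, and its difference was not called (log2 difference -0.68 ± 0.43 SE, limma adjusted p = 0.272).

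Of 39 tested hypoxia and glycolysis genes 4 rose and none fell (median 0.40). LDHA, lactate dehydrogenase A, was at 728, 1032, 1313 and 792 TPM in WT and 3849, 3479 and 1910 TPM in clone 4.2 (log2 difference 1.65 ± 0.37 SE, limma adjusted p = 0.00488). The glucose transporter gene SLC2A1 was at 94.8, 138, 188 and 99.5 TPM in WT and 324, 292 and 207 TPM in clone 4.2 (log2 difference 1.101 ± 0.26 SE, limma adjusted p = 0.00647). SLC2A1 lost its call without WT replicate 1 or 4 or clone 4.2 replicate 1 (log2 difference 0.97 to 0.99, adjusted p 0.0242 to 0.0362 by limma). CA9, a carbonic anhydrase known as a hypoxia marker, was at 26.7, 35.6, 38.3 and 26.3 TPM in WT and 487, 489 and 10.5 TPM in clone 4.2 and was not called (log2 difference 2.12 ± 1.46 SE, limma adjusted p = 0.319). The count was 1 without WT replicate 1 or clone 4.2 replicate 1, 2 without WT replicate 4 or clone 4.2 replicate 2, and 10 without clone 4.2 replicate 3, and 2 with the mitochondrial term. In that replicate LDHA, CA9 and VEGFA were the lowest of the clone 4.2 libraries. In a separate list of unfolded protein and integrated stress response genes, 2 of 32 tested members rose and 3 fell (median -0.03). Without clone 4.2 replicate 1 or 2 the counts were 1 and 1, and after median-of-ratios scaling 3 rose and 1 fell. Among those that rose was DDIT4, a stress-induced inhibitor of mTOR. It was at 129.8, 174, 134 and 108 TPM in WT and 459.8, 454 and 251 TPM in clone 4.2 (log2 difference 1.47 ± 0.34 SE, limma adjusted p = 0.00647).

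Lysosomal genes fell in 6 of 44 tested members and none rose (median -0.31). ASAH1, acid ceramidase, was at 180.1, 127, 57.4 and 261 TPM in WT and 33.5, 39.8 and 34.9 TPM in clone 4.2 (log2 difference -1.89 ± 0.47 SE, limma adjusted p = 0.00958). CTSS, a cathepsin of antigen processing, was at 29.9, 15.98, 8.68 and 31.0 TPM in WT and 1.07, 0.508 and 2.48 TPM in clone 4.2 (log2 difference -3.18 ± 0.50 SE, limma adjusted p = 3.87e-04). Neither overlapped. Without clone 4.2 replicate 2 the count of fallen lysosomal genes was 2, and after median-of-ratios scaling it was 3. In the antioxidant and iron list 4 of 34 tested members fell and none rose, with 2 after median-of-ratios scaling or without WT replicate 4, led by the extracellular superoxide dismutase SOD3, at 13.5, 6.99, 5.64 and 4.99 TPM in WT and 0.65, 0.491 and 0.032 TPM in clone 4.2 (log2 difference -2.60 ± 0.54 SE, limma adjusted p = 0.00302).

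Antigen presentation genes had lower values in clone 4.2. The HLA genes lie on chromosome 6 and NLRC5, CIITA and PSMB10 on chromosome 16, whose genes are described below. All 13 tested MHC class II genes had a difference below 0 (median -1.20) and 6 fell, and all 16 tested MHC class I genes were below 0 (median -0.83) and 3 fell. NLRC5, the transactivator of class I genes, was at 9.42, 10.9, 8.8 and 8.06 TPM in WT and 2.04, 1.82 and 3.48 TPM in clone 4.2 (log2 difference -1.60 ± 0.28 SE, limma adjusted p = 0.00104). CIITA, the transactivator of class II genes, was at 54.5, 49.2, 70.8 and 46.0 TPM in WT and 22.2, 14.5 and 27.3 TPM in clone 4.2 (log2 difference -1.35 ± 0.40 SE, limma adjusted p = 0.0229). HLA-DPB1 was at 1137, 1054, 845 and 988 TPM in WT and 448, 335 and 441 TPM in clone 4.2 (log2 difference -1.303 ± 0.41 SE, limma adjusted p = 0.03). The groups stood apart for all 3. HLA-F and PSMB10, an immunoproteasome subunit, fell, with log2 differences of -1.05 and -1.05, and both lost their calls after median-of-ratios scaling and after quantile normalization. HLA-B passed the p threshold and not the size threshold (log2 difference -0.94 ± 0.23 SE, limma adjusted p = 0.00894). CIITA lost its call without clone 4.2 replicate 1 or 2 (log2 difference -1.40 to -1.11, adjusted p 0.0529 to 0.119 by limma). HLA-DPB1 lost its call without any 1 library other than WT replicate 3 (log2 difference -1.38 to -1.17, adjusted p 0.0552 to 0.117 by limma). HLA-F lost its call without WT replicate 1 (log2 difference -0.9997, adjusted p 0.00573 by limma). PSMB10 lost its call without WT replicate 1 or 4 or clone 4.2 replicate 2 (log2 difference -0.98 to -0.96, adjusted p 0.0032 to 0.00662 by limma). Some HLA genes are close in sequence to each other, so how their reads were assigned may move single values. The class II count was 2 without clone 4.2 replicate 1 and 1 without replicate 2, and the class I count was 1 without WT replicate 1, 7 without WT replicate 3 and 6 without clone 4.2 replicate 3.

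Interferon-stimulated genes fell in 3 of 31 tested members and none rose (median -0.43). OAS2, an antiviral enzyme, was at 27.6, 23.99, 20.01 and 26.2 TPM in WT and 12.9, 6.94 and 9.22 TPM in clone 4.2 (log2 difference -1.28 ± 0.20 SE, limma adjusted p = 4.51e-04). Of the other members, IFIT3 was at 14.6 ± 1.94 and 16.3 ± 2.98 TPM in WT and clone 4.2 and was not called. Without clone 4.2 replicate 2 the count was 1, and without replicate 3 it was 5. Acute-phase, chemokine and NF-kB genes gave 2 risen and 5 fallen of 33 tested (median -0.33). CFB, complement factor B, was at 4.001, 1.95, 2.08 and 1.42 TPM in WT and 9.67, 8.41 and 7.58 TPM in clone 4.2 (log2 difference 1.56 ± 0.32 SE, limma adjusted p = 0.0031), and IL24, a cytokine first found in differentiating melanoma cells, was at 992, 935, 397 and 1251 TPM in WT and 41.5, 58.3 and 202 TPM in clone 4.2 (log2 difference -3.37 ± 0.89 SE, limma adjusted p = 0.0127). IL24 lost its call without clone 4.2 replicate 1 or 2 (log2 difference -3.15 to -2.91, adjusted p 0.0588 to 0.0628 by limma). C1S, a complement protease, fell from 20.1 ± 13.9 to 1.503 ± 0.818 TPM (log2 difference -2.87 ± 0.70 SE, limma adjusted p = 0.00818). In this list 1 member was called higher without any 1 library other than WT replicate 2 and with the mitochondrial term. The count of fallen ones ran from 1, without clone 4.2 replicate 1 or 2, to 9, without WT replicate 3, and was 2 after median-of-ratios scaling. Of 10 tested checkpoint and adenosine genes 2 rose and 1 fell (median -0.07). VSIR (log2 difference 1.85 ± 0.33 SE, limma adjusted p = 0.00104) and ADORA2B (log2 difference 1.15 ± 0.16 SE, limma adjusted p = 1.02e-04) rose. TNFRSF14, described above, fell (log2 difference -3.04).

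All 25 tested S phase genes had a difference above 0 (median 0.46) and 1 was called (4%, beside 2.52% among all genes), and of 25 tested G2 and M phase genes 23 were above 0 (median 0.36) and none was called. The called gene was the cyclin gene CCNE2, at 4.79, 7.95, 12.3 and 8.8 TPM in WT and 16.8, 31.6 and 23 TPM in clone 4.2 (log2 difference 1.41 ± 0.39 SE, limma adjusted p = 0.0156). CCNE2 lost its call without WT replicate 1 or clone 4.2 replicate 2 (log2 difference 1.19, adjusted p 0.0543 to 0.0873 by limma). Summed TPM of the groups overlapped for S phase genes, at 1490 to 2609 in WT and 2455 to 2937 in clone 4.2, and for G2 and M phase genes, at 1172 to 2489 and 1616 to 2093. CDKN1C, an imprinted CDK inhibitor, was at 4.75, 3.85, 5.51 and 2.71 TPM in WT and 45.3, 17.7 and 17.9 TPM in clone 4.2 and rose (log2 difference 2.32 ± 0.43 SE, limma adjusted p = 0.00151). MKI67, a proliferation marker, was at 38.4 ± 13.2 and 45.5 ± 9.86 TPM (log2 difference 0.27 ± 0.40 SE, limma adjusted p = 0.669), and WT replicate 3 was its highest library.

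Of 21 tested p53 targets GDF15 and PHLDA3 fell (-3.53 and -1.04) and 18 were below 0 (median -0.34). PHLDA3 lost its call without WT replicate 1, 2 or 4 or clone 4.2 replicate 1 or 2 (log2 difference -1.12 to -0.80, adjusted p 0.0665 to 0.181 by limma). CDKN1A, the p21 gene, was at 313 ± 13.3 and 191 ± 18.7 TPM, under the size threshold (log2 difference -0.71 ± 0.16 SE, limma adjusted p = 0.00597). Cancer-testis antigens gave 1 risen and 2 fallen of 23 tested: MAGEA10 was at 41.1, 40.1, 40.7 and 38.3 TPM in WT and 14.5, 14.5 and 20.6 TPM in clone 4.2 (log2 difference -1.25 ± 0.15 SE, limma adjusted p = 3.23e-05), and CTAG1B was listed at 0 in all clone 4.2 libraries and at 1.01, 2.63, 1.68 and 5.36 TPM in WT. H19, an imprinted noncoding RNA, was at 5.7, 7.38, 5.08 and 2.42 TPM in WT and 101.2, 36.9 and 36.4 TPM in clone 4.2 (log2 difference 3.17 ± 0.66 SE, limma adjusted p = 0.00306). No cancer-testis gene was called higher without WT replicate 1, 2 or 4 or clone 4.2 replicate 2 or 3, and 2 were called higher without WT replicate 3 or after median-of-ratios scaling. Of 37 tested HOX genes 1 fell and none rose, 4 fell without WT replicate 3 or clone 4.2 replicate 3, and none fell after median-of-ratios scaling or quantile normalization. No heat shock chaperone was called among 15 tested.

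The median difference of the 308 tested genes of chromosome 13 was -0.58, which is -0.49 from the median of all tested genes, and 85.1% of them were below 0. Of these genes 51 fell and 1 rose. With no filter on low values, which lets further genes in, the chromosome 13 value was -0.06 (-0.0618) from the median of all genes. The mitochondrial genome was the other unit with a shift of at least 0.2, with a median of -0.74 over 18 genes. Chromosomes 16 and 6 stayed under that threshold, at -0.19 and -0.15 from the median of all genes, and chromosome 8 was at 0.19. On chromosome 8, 42.4% of 578 tested genes were below 0, 29 rose and 27 fell. On chromosome 16, 73.4% of 817 tested genes were below 0, 46 fell and 9 rose. On chromosome 6, 68.4% of 857 were below 0, 69 fell and 14 rose. Counts of called genes on these chromosomes are to be read against 4.08% lower and 2.52% higher among all tested genes. Chromosomes 9 and 17, nearer to the median of all genes, also had 65.7% and 65.1% of tested genes below 0. The part of chromosomes 6 and 16 in the antigen presentation values was not tested, nor that of chromosome 8 in the values of its genes. DCT, EDNRB, LATS2, SPRY2, IRS2 and EFNB2 lie on chromosome 13, so their values include whatever moves that chromosome's genes. EFNB2 is the gene of chromosome 13 that rose. Copy number was not measured here. Without clone 4.2 replicate 1 the shift of the mitochondrial genome was -0.15.

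Clone 4.1 carries the same labelled deletion, and the difference between the 2 clones' means uses no WT value, while its standard error rests on a spread pooled over all 21 WM115 libraries, WT included. Of the 16997 genes 447 were called (2.63%), 137 higher (0.806%) and 310 lower (1.82%) in clone 4.2, with a median of 0.00. Without clone 4.1 replicate 1 the count was 292 and without clone 4.2 replicate 2 it was 293. The pigment gene called between the clones was GPR143, which was at 0.292, 0.267 and 0.208 TPM in clone 4.1 and was called higher in clone 4.2 (log2 difference 1.57 ± 0.28 SE, limma adjusted p = 0.0018). GPR143 passed the filter on low values only through the clone 4.2 libraries, so this p-value lends no separate support. DCT was at 7.08, 2.37 and 13.7 TPM in clone 4.1, MITF at 11.2, 9.25 and 11.1 TPM and ID1 at 48.5, 47.2 and 67.5 TPM, and none of them was called between the clones. Neither was any sterol gene among 32 tested, with a median of -0.10 between the clones.

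Acute-phase and NF-kB response genes were the list with the most members lower in clone 4.2 than in clone 4.1, 13 of 33 with none higher (median -1.39). SAA1, an acute-phase protein gene, was at 737, 539, 246 and 53.6 TPM in WT, 83.7, 20.2 and 149 TPM in clone 4.2 and 4935, 2246 and 3477 TPM in clone 4.1 (log2 difference -5.71 ± 0.92 SE, limma adjusted p = 6.30e-04 for clone 4.2 minus clone 4.1). SAA2, a near-identical neighbour with which reads may be shared, had a difference of -5.94. C1S was at 27.8, 29.8 and 47.4 TPM in clone 4.1 and 2.39, 1.34 and 0.778 TPM in clone 4.2 (log2 difference -3.86 ± 0.75 SE, limma adjusted p = 0.00348). CTSS was at 25.5, 21.3 and 22.5 TPM in clone 4.1 (log2 difference -3.44 ± 0.53 SE, limma adjusted p = 4.48e-04). For SAA1 the WT and clone 4.2 libraries overlapped and all clone 4.1 libraries lay above both groups. WFDC2, a secreted protease inhibitor family gene, was at 114, 181 and 189.6 TPM in clone 4.1 and under 2 TPM in all WT and clone 4.2 libraries (log2 difference -6.39 ± 0.31 SE, limma adjusted p = 8.89e-11). The cancer-testis gene PAGE2 and the apolipoprotein gene APOC2 were also lower in clone 4.2 than in clone 4.1 (-6.11 and -5.63). PTGS2, which rose against WT, was higher still in clone 4.1, at 312, 236 and 245 TPM (log2 difference -2.52 ± 0.37 SE, limma adjusted p = 2.82e-04).

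Higher in clone 4.2 than in clone 4.1 were ZNF83, ACTG2, ZFP42, H19 and MGST1, the 5 furthest in that direction. The zinc finger gene ZNF83 was at 0.079, 0.121 and 0.186 TPM in clone 4.1 and at 10.02, 15.97 and 14.7 TPM in clone 4.2 (log2 difference 3.67 ± 0.22 SE, limma adjusted p = 2.51e-09), and it was at 12.6, 9.42, 9.57 and 13.3 TPM in WT. ACTG2 was at 0.32, 1.53 and 0.326 TPM in clone 4.1 (log2 difference 3.43 ± 0.54 SE, limma adjusted p = 4.93e-04) and H19 at 8.05, 3.15 and 4.82 TPM (log2 difference 3.12 ± 0.70 SE, limma adjusted p = 0.0103). MGST1 was at 6.21, 10.4 and 12.6 TPM in clone 4.1 (log2 difference 2.94 ± 0.83 SE, limma adjusted p = 0.0387), with no overlap between the clones. Between the clones MGST1 lost its call without any 1 of the 6 libraries (log2 differences 2.68 to 3.14), and H19 lost it without clone 4.2 replicate 1 (log2 difference 2.64). ZFP42, a zinc finger gene of pluripotent cells, differed by 3.42 log2 units between the clones and rose against WT by 1.67. ZFP42 lost its call without clone 4.2 replicate 2 or 3 (log2 difference 1.54 to 1.75, adjusted p 0.0512 to 0.0604 by limma). So among the genes that rose furthest against WT, ACTG2, H19, MGST1 and EPGN were also called between the clones. EPGN, like GPR143, passed the filter on low values only through the clone 4.2 libraries. Both contrasts of an R4 clone with WT share the WT libraries, so their values are given side by side only.

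**Figure D5:**
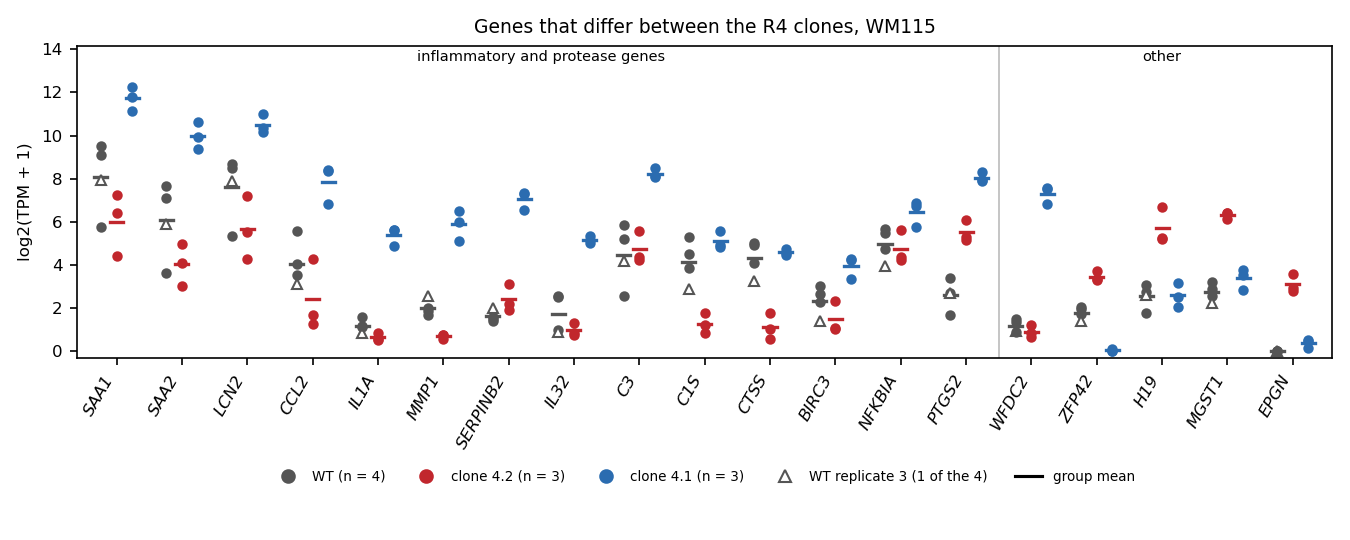
Level of genes that differ between the R4 clones in each library as log2(TPM + 1), for the 4 WT, 3 clone 4.2 and 3 clone 4.1 libraries, with an open triangle for WT replicate 3 and a bar at each group's mean. SAA1, SAA2, C1S and WFDC2 are higher in clone 4.1 than in clone 4.2, and ZFP42, H19, MGST1 and EPGN are lower.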

How the data were processed

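Gene-level TPM were deposited by the authors as 1 table over all libraries. DRAGEN and the build GRCh38 are named per the submitters' processing notes, and the aligner's role, the annotation and the version are not given in the sources used here. Per the labels' protocols, total RNA was selected by oligo-dT and primed with random hexamers. The table held 60871 lines, of which 200 repeated another line and were dropped, and 6 columns that match no sample were not used. TPM sum to the same total in each library and keep no depth, so depth is unknown and no counting interval is given. Gene positions are from GENCODE 29 (GRCh38) and promoters from RefSeq (GRCh38.p14).

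Groups were taken from the labels. limma 3.58.1 (R 4.3.3) was fitted to log2(TPM + 1) over all 21 WM115 libraries in 6 groups, with a variance trend, for genes of at least 1 TPM in at least 3 of them. Differences are on that scale and understate changes of low genes. Tests were two-sided, with Benjamini-Hochberg adjustment over all tested genes. A gene was called at an adjusted p under 0.05 and a log2 difference of at least 1. The procedure was checked on simulated data.

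The genes and the 59 lists were chosen with earlier results of these data known. The rule named the 12 genes furthest in each direction, up to 5 called members per direction and up to 4 abundant uncalled members of each list, the 5 furthest in each direction between the clones, and SOX10 and MITF. TYR, SLC45A2, TSPAN10, ACP5, GPM6B, S100A3, S100A10, THBS1 and SPRY2 were named after their values were seen. Alternatives covered the pseudocount, filters, scalings, a term for libraries under 7.5% mitochondrial RNA, a replicate block and leaving out single libraries. Values of some list members are not reported here, though the list counts include them.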

Additional observations from a re-analysis of the deposited data

Results flagged for a closer look

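Clone 4.2 and clone 4.1 carry the same labelled deletion, and 38 named genes differed between them (log2 difference of clone 4.2 minus clone 4.1, called by limma, with a spread pooled over all WM115 libraries, WT included). Lower in clone 4.2 were WFDC2 (-6.39), SAA2 (-5.94), SAA1 (-5.71), APOC2 (-5.63), the complement protease C1S (-3.86), the cathepsin CTSS (-3.44), PTGS2 (-2.52), SOD2 (-1.88), TNFAIP2 (-1.85) and CSF1 (-1.38). The same direction was found for KRT23 (-4.67), LGALS7 (-1.58), CLDN1 (-1.49), DMKN (-1.37), PKP3 (-1.36) and F11R (-1.03). The cancer-testis genes PAGE2 (-6.11) and MAGEA10 (-1.31), the transcription factors BATF (-1.93) and SOX6 (-1.55), MAPT (-1.13), LATS2 (-1.07) and THBD (-1.03) were lower too.

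Higher in clone 4.2 than in clone 4.1 were ZNF83 (3.67), ACTG2 (3.43), ZFP42 (3.42), H19 (3.12), MGST1 (2.94), EPGN (2.73), CRABP1 (1.71), SEMA3B (1.65), S100A5 (1.585), GPR143 (1.575), C1QL1 (1.36), VLDLR (1.25), EPHB3 (1.23), TFB1M (1.12) and S100A13 (1.062). EPGN and GPR143 passed the filter on low values only through the clone 4.2 libraries.

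In 16 of the 213 named genes examined, 1 WT library stood far from the other 3, and chance alone flags about 1 in 20 groups. In 13 of the 16 it was WT replicate 3. That library was low for GPNMB (415 TPM), MAFF (104.9 TPM), ESRRA (57.0 TPM), NEU1 (36.9 TPM), SQLE (28.8 TPM), COL27A1 (8.18 TPM), GAPDHS (4.71 TPM) and PPARGC1A (2.04 TPM). It was high for COL12A1 (21.9 TPM), ACTG2 (5.15 TPM), PDGFB (2.09 TPM), KRT23 (0.753 TPM) and PAGE2 (0.16 TPM). WT replicate 4 was low for IGFBP3 (53.4 TPM) and WNT5A (4.74 TPM), and WT replicate 1 was high for DLK2 (4.32 TPM).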

How the results depend on the processing

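No called difference of a named gene reversed in the alternatives run, and uncalled genes other than SOX10 were not followed through them. List medians near 0 did change sign, among them those of the Wnt and Notch lists (-0.04 and -0.06 with the mitochondrial term). The retinoid median was 0.07 without clone 4.2 replicate 2. Against WT, the 1122 calls (429 higher, 693 lower) became 708 (265 and 443) at a mean TPM of at least 5, where fewer genes were tested, and 3449 (1140 and 2309) with no minimum difference. With the replicate number as a block they became 410 (184 and 226). Same-numbered libraries of clone 4.2 and WT correlated at 0.141, -0.072 and 0.021 in their deviations from the group means. Pairs with different numbers ran from -0.137 to 0.152. So few values cannot show whether a number marks a shared batch, and the labels do not say. Leaving out 1 library gave 784 to 1462 calls, 324 to 524 higher and 458 to 938 lower. The chromosome 13 shift of -0.49 was -0.06 (-0.0618) with no filter on low values, and the shift of the mitochondrial genome ranged from -0.91 to -0.15 over single left-out libraries.

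Against clone 4.1, the 447 calls (137 higher, 310 lower) became 195 (62 and 133) at a mean TPM of at least 5, 1148 (469 and 679) with no minimum difference and 288 (81 higher) with the replicate block, and 209 genes were called higher at a pseudocount of 0.1. Leaving out 1 library of either clone gave 292 to 457 calls, 79 to 152 higher and 203 to 311 lower. Without clone 1.2 replicate 3, a library of neither clone, there were 518 calls, 164 higher and 354 lower. The cause of these changes was not tested unless stated.

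Of the named differences, 98 lost their call with the replicate block, 24 after median-of-ratios scaling and 34 with the mitochondrial term. Rescaling without mitochondrial and ribosomal protein genes ended 3 named calls, and against WT it gave 461 genes called higher and 771 lower. TPM carry no depth, so the precision of low values is unknown.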
